A study of Arabidopsis thaliana with 12 samples.

Results

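Plastid ribosomal protein genes encode the proteins of the ribosome inside chloroplasts. Members were the 5 genes L29 (AT5G65220), L17 (AT3G54210), L5 (AT4G01310), S10 (AT3G13120) and S6 (AT1G64510), each read from an array probe that the platform annotation assigns to exactly 1 gene. Each of the 5 had 1 such probe, and they stand among 692 single-gene probes and 3439 probes in all. The samples were 6 readings of the toc90 mutant of Arabidopsis thaliana and 6 readings of the wild type (WT), both in the ecotype Columbia 0 and numbered 1 to 6. Total RNA was measured in 1 channel per sample, and per the labels the mutant has a defect in moving proteins over the outer chloroplast membrane. In the sources used here, the tissue, age, growth conditions and toc90 allele are not given. Nothing in the labels says whether readings came from separate plants, so the p-values cover only differences among these 12 readings, and part of that spread may be technical.

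The plastid ribosome is of the bacterial type and translates the messages of the plastid genome, among them core subunits of the photosystems and the large subunit of Rubisco. Its RNAs and some of its proteins are encoded in the plastid, while the 5 genes studied here lie in the nucleus. Their products are made in the cytosol as precursors with a transit peptide and reach the ribosome through the import complexes of the chloroplast envelope. Toc90 belongs to the receptor GTPases of the outer envelope complex. In bacteria, L29 and L17 lie near the tunnel through which the new protein chain leaves the large subunit, and L5 sits in its central protuberance. S10 belongs to the head of the small subunit, and S6 to its platform.

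The deposited values are intensities on an unstated scale with a floor at 0 and a highest value of 100. The share of probes listed at 0 ran from 20.3% to 33.4% in toc90 readings, against 13.5% to 17.3% in WT readings. The column median ran from 0.0593 to 0.0687 in toc90, against 0.151 to 0.157 in WT. The members lie in the range where this difference weighs, so each is given as deposited, relative to the column median and after normalization. For the fit across all probes, zeros were set to missing, columns were quantile normalized on the log2 scale, and limma was run on the 2687 probes with at least 3 values in each group. A call is a Benjamini-Hochberg adjusted p under 0.05. Among green tissue markers, LHB1B2, an antenna protein of photosystem II, was on a single-gene probe and averaged 28.4 ± 9.04 in toc90 and 28.3 ± 5.10 in WT (SD, n = 6 each). The fixed root, flower and seed markers were not on single-gene probes, and a lower share of green cells cannot be told apart from less of these RNAs per cell. The number of arrays limits the precision.

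Of the 5 members, L29 fell in toc90, while L17, L5 and S10 did not pass the test and S6 could not be tested. The L29 call holds with 12 readings counted as independent. With neighbouring numbers as a random block, at an estimated correlation of 0.518, its limma adjusted p was 0.0533, and with neighbouring numbers averaged it was 0.199. With the number as a replicate block, which pairs same-numbered readings of toc90 and WT, the limma adjusted p of L29 was 0.0720. Across probes, 12 of 12 readings correlated best with their own number in the other group, at 0.0574 to 0.250. The median log2 difference of the 4 tested members was -0.77, against -0.21 over all tested probes. Without toc90 reading 1 it was -0.11, against -0.23 over all tested probes, and with an offset it was 0.06 over the 5 members, against 0.06 over all probes. In this fit 17% of all tested probes were called lower in toc90 and 6.92% higher. A count of 1 lower among 4 tested members is near that background.

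L29 had deposited values of 0.0894, 0.0792, 0.0268, 0.0175, 0.0834 and 0.0759 in toc90 readings 1 to 6. It had 0.223, 0.212, 0.388, 0.313, 0.250 and 0.228 in WT readings 1 to 6. The groups did not overlap, since the highest of the 6 toc90 readings was 0.0894 and the lowest WT reading 0.212. The lowest toc90 readings and the highest WT readings both carried the numbers 3 and 4. The mean was 0.0620 ± 0.0313 in toc90 and 0.269 ± 0.0686 in WT (SD, n = 6 each), or 4.34-fold lower in toc90. The two-sided exact permutation p on these means was 0.00216, the smallest this design allows, and 0.00983 after adjustment over 3333 probes. By the same rule 33.2% of those probes were called lower, and 19.9% of all 3439 probes were separated in the same way.

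After normalization the L29 difference was -1.60 in log2 (SE 0.46, 95% interval -2.60 to -0.60, limma adjusted p = 0.0266), which is -1.39 relative to the median of all tested probes. The L29 difference was smaller where zeros were kept. It was -0.79 with an offset before log2 (limma adjusted p = 0.0241). With zeros at the lowest positive value it was -1.02 and not called (limma adjusted p = 0.0712). Divided by the column median, L29 stood at 1.01 ± 0.531 in toc90 and 1.75 ± 0.456 in WT (SD, n = 6 each, exact permutation adjusted p = 0.0490). In this measure 8.19% of probes were called lower. The call was lost, at a limma adjusted p of 0.0543, 0.0507 and 0.0502, without WT reading 3, 4 or 5. Leaving out a pair of numbers from both groups was tried after seeing the data. The call was lost without numbers 1 and 2 (-2.07 in log2, limma adjusted p = 0.0518) and without 5 and 6 (-2.02, 0.0557). Without numbers 3 and 4 the difference was smaller, at -0.70 in log2, and was called (limma adjusted p = 0.0228).

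**Figure D1:**
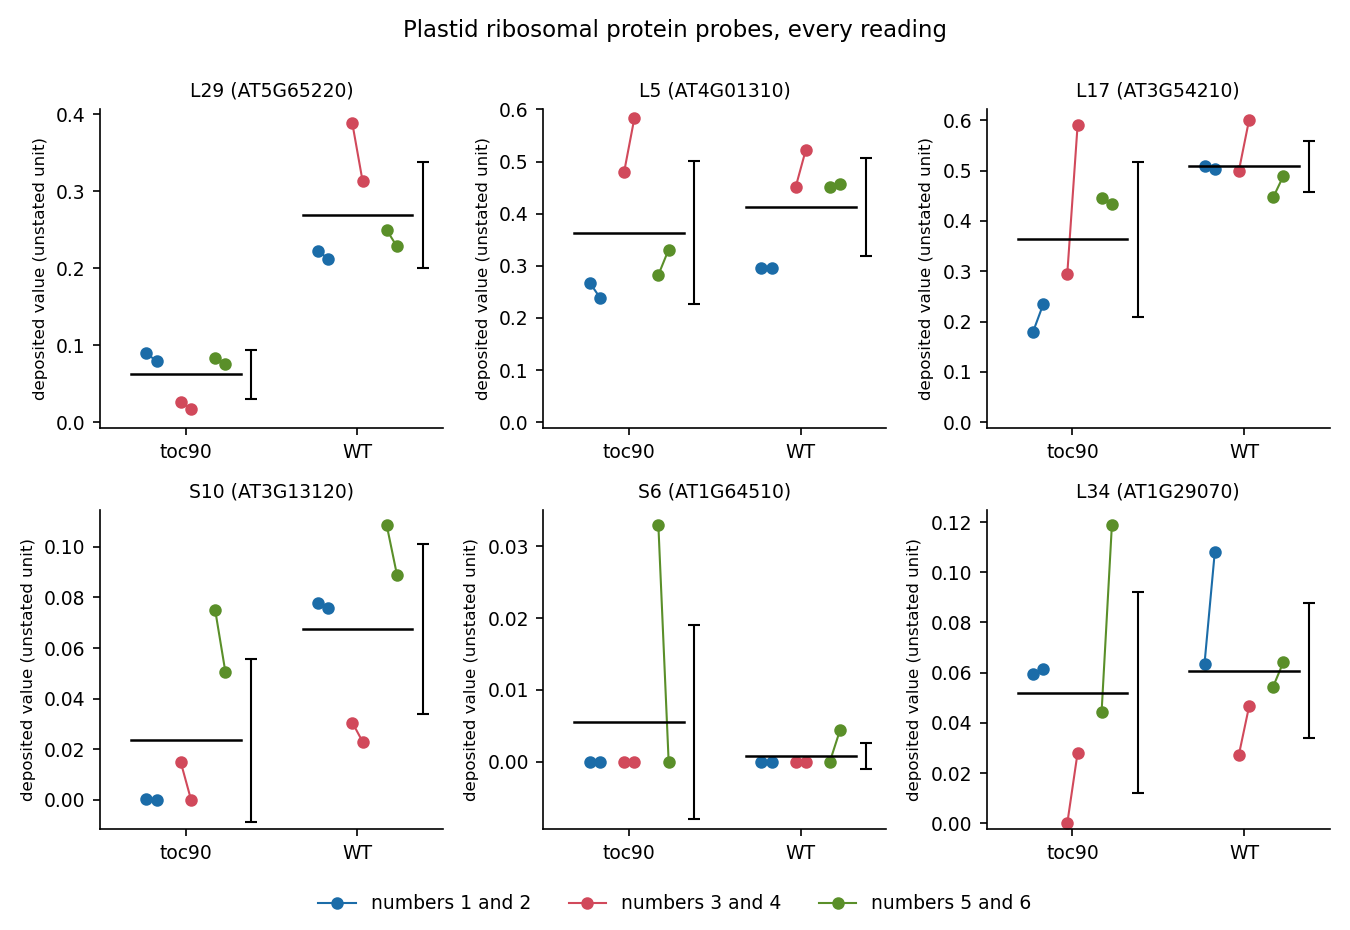
Deposited values (y axis, unstated unit) of 6 plastid ribosomal protein probes in each reading of toc90 (left) and WT (right). Points joined by a line carry neighbouring numbers, horizontal bars are means and error bars SD (n = 6 each). The 6 toc90 readings of L29, from 0.0175 to 0.0894, sit below its WT readings, from 0.212 to 0.388, while the groups overlap for the other probes.

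Readings with neighbouring numbers lay close together for L29, at most 1.53-fold apart, although the 3 number pairs differed more from each other. The widest gap where both were above 0 was 1.22-fold for L5, 1.998-fold for L17, 1.49-fold for S10 and 2.68-fold for L34. In toc90 readings 3 and 4, S10 stood at 0.0149 and 0. Across probes, neighbouring readings correlated at 0.139, -0.0503 and 0.345 in toc90 for the 3 pairs in order. In WT they correlated at 0.436, 0.542 and 0.606. Averaged over neighbouring numbers, L29 stood at 0.0843 in toc90 against 0.217 in WT for numbers 1 and 2. It stood at 0.0222 in toc90 against 0.350 in WT for numbers 3 and 4, and at 0.0796 in toc90 against 0.239 in WT for numbers 5 and 6. The ratio of toc90 to WT was thus below 1 in each of the 3 pairs, but its size ran from 0.0633 for numbers 3 and 4 to 0.388 for numbers 1 and 2. The share of all probes below 1 in each of the 3 pairs was not counted. If neighbouring readings are counted as 1 sample, 3 against 3, the L29 difference of -1.60 in log2 was no longer called (limma adjusted p = 0.199), where 2.87% of probes were called lower. The exact permutation p on the deposited means was then 0.1, the smallest that 3 against 3 can give.

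**Figure D2:**
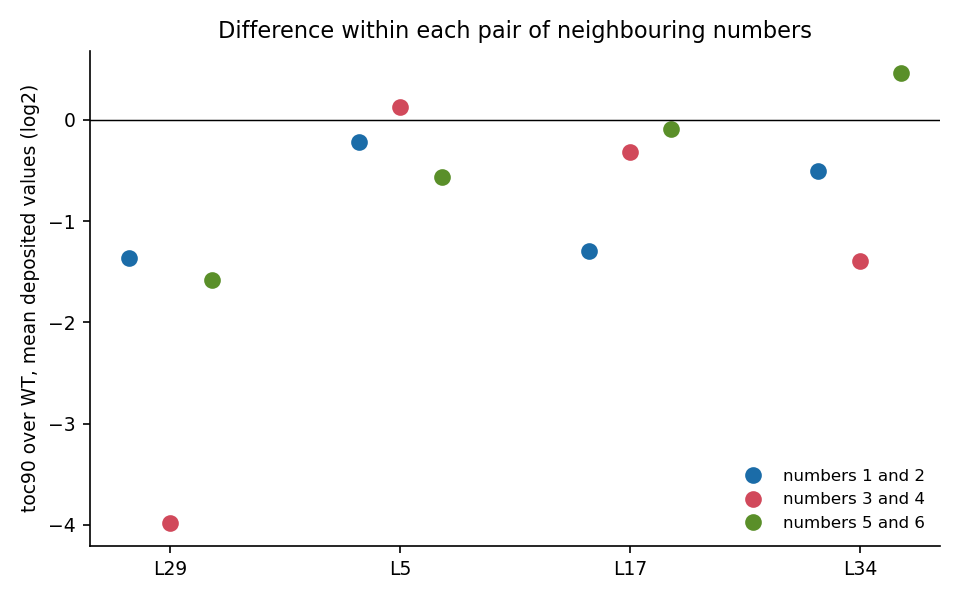
Log2 ratio of toc90 to WT (y axis) of deposited values averaged over neighbouring numbers, for L29, L5, L17 and L34 (x axis), one point per pair of numbers. L29 is below 0 in all 3 pairs, at -1.37, -3.98 and -1.59, as is L17, at -1.29, -0.31 and -0.09, while L5 and L34 lie on both sides of 0. S10, not drawn, was also below 0 in all 3 pairs. How many of all probes lie below 0 in all 3 pairs was not counted. Column medians were also lower in toc90 (0.0593 to 0.0687) than in WT (0.151 to 0.157).

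Many probes with a signal like that of L29 were also lower in toc90. Among 323 other probes whose WT mean lay within a factor of 1.2 of that of L29, the median log2 ratio of deposited group means was -0.90, with quartiles of -1.61 and -0.24. L29 stood at -2.12 in this measure, and 16.1% of the 323 probes were as low or lower. On 35.9% of them the toc90 readings were all lower than the WT readings. In WT the L29 readings stood at percentiles 61.4 to 73.4 of their columns. In toc90 they stood lower, at percentiles 38.2 to 58.2, in columns where 20.3% to 33.4% of probes were listed at 0. The median log2 ratio was also below 0 among probes with a WT mean like that of L5 (-0.69) or L17 (-0.67). The part of this general drop in the L29 result was not tested.

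**Figure D3:**
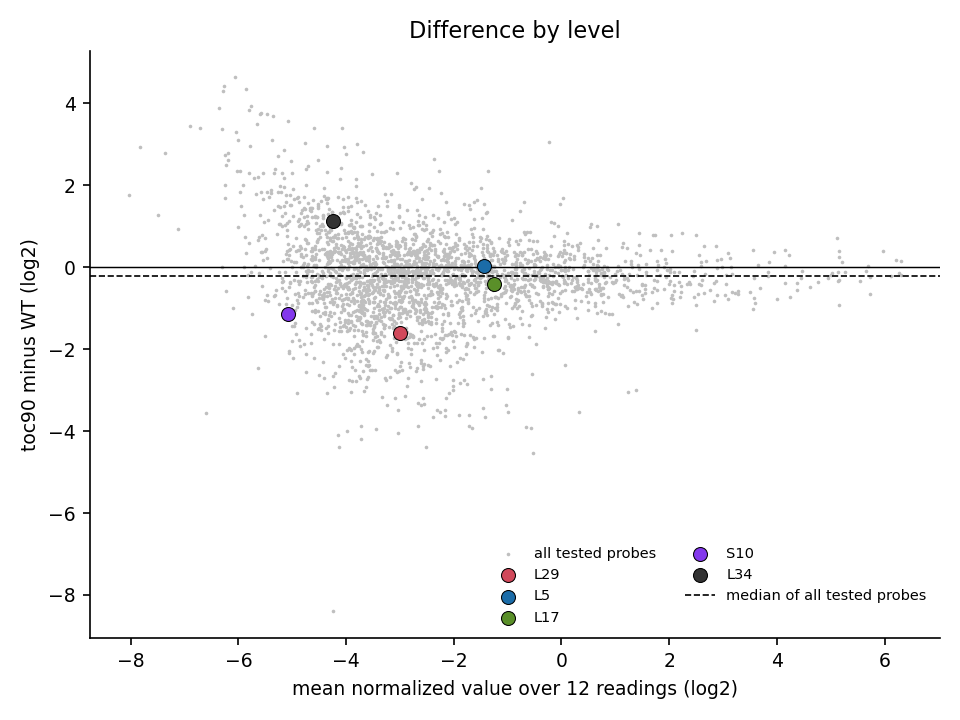
Log2 difference toc90 minus WT (y axis, limma) against the mean normalized log2 value over the 12 readings (x axis) for all 2687 tested probes (grey), with the ribosomal protein probes in colour. The dashed line is the median of all tested probes at -0.21. L29 (-1.60) lies in the lower part of the cloud and L5 (0.02) and L17 (-0.40) near its middle.

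L17 had deposited values of 0.179, 0.235, 0.295, 0.590, 0.446 and 0.434 in toc90 readings 1 to 6, against 0.509, 0.504, 0.499, 0.601, 0.447 and 0.490 in WT readings 1 to 6. WT readings lay close together, whereas toc90 readings spread widely, and 5 of the 6 toc90 readings were lower than any WT reading. Of these, toc90 reading 5 (0.4464) was barely below WT reading 5 (0.4466). The share of all probes with such a count was not taken. Among probes with a WT mean like that of L17, 33.3% had all toc90 readings below every WT reading. The mean was 0.363 ± 0.154 in toc90 and 0.508 ± 0.0507 in WT (SD, n = 6 each, exact permutation p = 0.0693, adjusted over all probes 0.142). The exception was toc90 reading 4, at 0.590. Without it all remaining toc90 readings lay below every WT reading, which gives the smallest possible permutation p. The difference of deposited means was then -0.190 (exact permutation adjusted p = 0.0110), against -0.145 with all readings. That call follows from the choice of the reading and is no separate support. With any 1 other reading left out, the exact permutation adjusted p ran from 0.142 to 0.234. Limma without toc90 reading 4 gave -0.49 in log2 and no call (limma adjusted p = 0.150). After normalization the L17 difference was -0.40 in log2 (SE 0.23, 95% interval -0.90 to 0.09, limma adjusted p = 0.225), and it was 0.10 with median scaling (0.813).

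For L17 the number pairs gave unlike ratios of toc90 to WT, at 0.408 for numbers 1 and 2, 0.804 for 3 and 4 and 0.940 for 5 and 6. Relative to the column median it stood at 5.92 ± 2.66 in toc90 and 3.31 ± 0.356 in WT (SD, n = 6 each, exact permutation adjusted p = 0.0718). The direction of L17 therefore turned with the scale, and neither direction passed with all 12 readings. Among 186 probes with a WT mean like that of L17, 57.0% had a log2 ratio of deposited group means as low as its own (-0.49) or lower.

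L5 had deposited values of 0.268, 0.239, 0.479, 0.583, 0.282 and 0.331 in toc90 readings 1 to 6, against 0.295, 0.296, 0.450, 0.523, 0.450 and 0.457 in WT readings 1 to 6. The groups overlapped, and in both the numbers 1 and 2 were low and the number 4 was highest. The mean was 0.364 ± 0.137 in toc90 and 0.412 ± 0.0943 in WT (SD, n = 6 each, exact permutation p = 0.489, adjusted over all probes 0.616). After normalization the difference was 0.02 in log2 (SE 0.20, limma adjusted p = 0.940), with a 95% interval of -0.41 to 0.46.

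Relative to the column median, L5 stood higher in toc90, at 5.87 ± 2.21, than in WT, at 2.67 ± 0.594 (SD, n = 6 each, exact permutation adjusted p = 0.0101). By this rule 22.7% of probes were called higher in toc90. With median scaling before log2 the L5 difference was 0.47 (limma adjusted p = 0.107). Among 227 probes with a WT mean like that of L5, 74.9% had a log2 ratio as low as its own (-0.18) or lower.

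**Figure D4:**
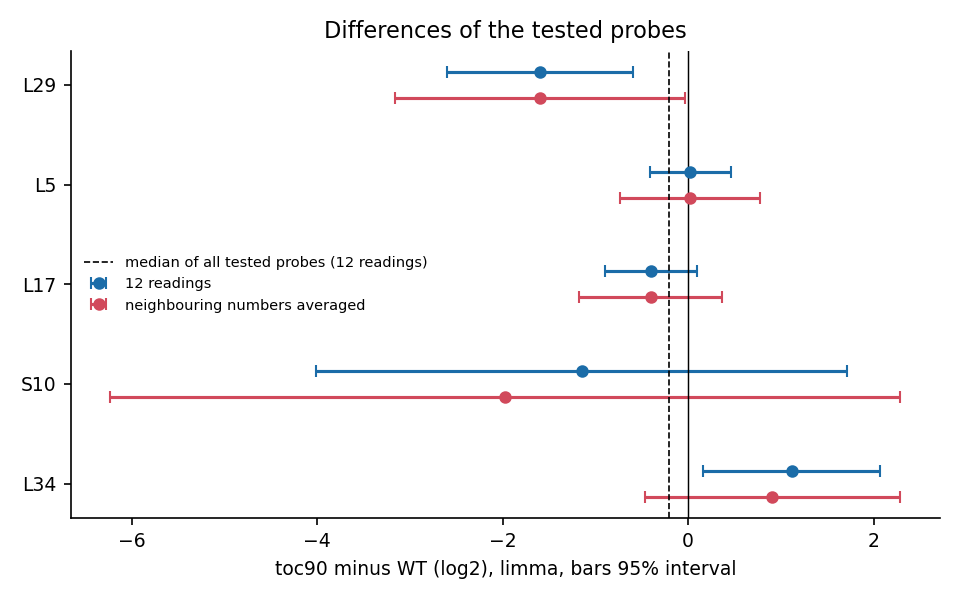
Log2 difference toc90 minus WT (x axis, limma) with 95% intervals for the 4 tested members and L34, from 12 readings (blue) and from neighbouring numbers averaged (red). The dashed line is the median of all tested probes from 12 readings, at -0.21. With 12 readings the interval of L29 runs from -2.60 to -0.60, and those of L5, L17 and S10 span 0.

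Within a reading, the ratio of 2 probes does not depend on a factor applied to the whole column. A shift or a floor in the values can still move it. Its difference between groups shows whether the values of 2 probes changed unequally. The level of the ratio itself compares different probes and carries no meaning. Of the 10 pairs of members, 6 could be compared, since S6 had too few readings above 0. The log2 ratio of L29 to L5 ran from -5.06 to -1.58 in toc90 readings, against -1.003 to -0.22 in WT readings, with no overlap. It averaged -2.71 ± 1.51 in toc90 and -0.62 ± 0.30 in WT (SD, n = 6 each), a difference of -2.10 (exact permutation p = 0.00216, adjusted over 6 pairs 0.0130). The log2 ratio of L29 to L17 averaged -2.67 ± 1.45 in toc90 and -0.95 ± 0.32 in WT (SD, n = 6 each), a difference of -1.73 (exact permutation p = 0.00866, adjusted over 6 pairs 0.0260). For L29 to L17, 5 of 6 toc90 readings were lower than any WT reading. How many other probes would separate like this against L5 or L17 was not counted. On their own deposited values, 19.9% of all 3439 probes had all 6 toc90 readings below every WT reading.

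L29 was thus lower in toc90 relative to both L5 and L17, with 12 readings counted as independent. The adjusted exact permutation p for L29 to L5 was 0.0519 without WT reading 1, 2 or 3. For L29 to L17 it ran from 0.0584 to 0.0714 with any one of the 6 WT readings left out. With neighbouring numbers averaged, both had an unadjusted exact permutation p of 0.1, the smallest possible. With the number as a replicate block, both had an exact permutation adjusted p of 0.188. For L5 to L17 the difference in log2 ratio was 0.37 (exact permutation adjusted p = 0.246). The 3 pairs with S10, from 4 toc90 and 6 WT readings, differed by 0.33 for L29, 2.12 for L5 and 1.73 for L17, with adjusted exact permutation p-values of 0.933, 0.246 and 0.246. Without toc90 reading 1 these differences were -1.64, 0.43 and 0.21.

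**Figure D5:**
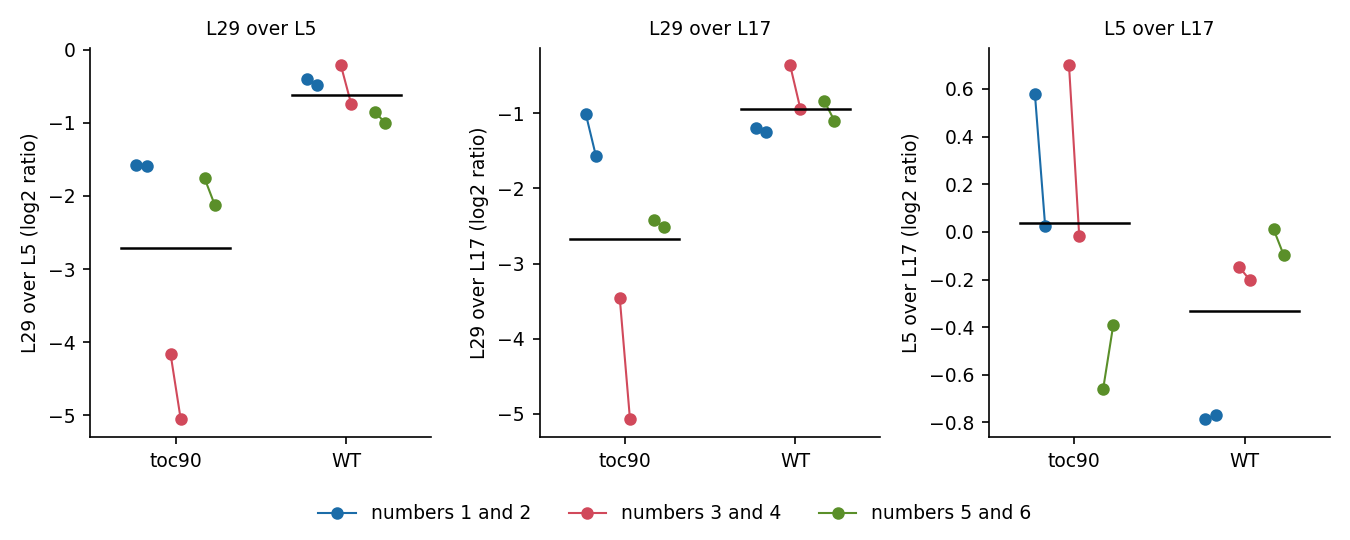
Log2 ratio of 2 member probes within each reading (y axis) for L29 over L5, L29 over L17 and L5 over L17, in toc90 (left) and WT (right), with neighbouring numbers joined and group means as bars. L29 over L5 lies at -1.58 or lower in the toc90 readings and at -1.003 or higher in the WT readings, while the groups overlap for L5 over L17. How many other probe pairs separate in this way was not counted.

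Of the small subunit, S10 had deposited values of 0.000268, 0, 0.0149, 0, 0.0752 and 0.0506 in toc90 readings 1 to 6, against 0.0779, 0.0759, 0.0306, 0.0230, 0.109 and 0.0890 in WT readings 1 to 6. Numbers 1 and 2 were at or near the floor in toc90, and 4 of its 6 readings were lower than any WT reading. The share of all probes with such a count was not taken. The mean was 0.0235 ± 0.0320 in toc90 and 0.0675 ± 0.0337 in WT (SD, n = 6 each, exact permutation p = 0.0411, adjusted over all probes 0.0957). After normalization, with the 2 zeros of toc90 left out of the fit, the difference was -1.15 in log2 (SE 1.29, 95% interval -4.01 to 1.72, limma adjusted p = 0.553). With an offset of 0.0296 added before log2, which keeps the zeros, it was 0.06 (limma adjusted p = 0.918). It was 0.45 without toc90 reading 1 (limma adjusted p = 0.673). Relative to the column median S10 stood at 0.383 ± 0.534 in toc90 and 0.437 ± 0.214 in WT (SD, n = 6 each, exact permutation adjusted p = 0.941). S10 was lower in toc90 than in WT in each number pair as deposited, but the size and sign of its log2 difference depended on how values near the floor were treated. Among 221 probes with a WT mean like that of S10, the median log2 ratio of deposited group means was -0.98, and 31.7% were as low as S10 (-1.52) or lower.

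S6 was listed at 0 in 10 of 12 readings. The 2 readings above 0 were 0.0330 in toc90 reading 5 and 0.00444 in WT reading 6. No change of S6 could be measured on this probe, since it was at the floor in 5 of 6 readings of each group. Of all probes, 5.58% were at 0 in 5 or more of 6 readings in both groups. With its zeros floored at the lowest positive value of the table, its fitted log2 difference was 3.72 (limma adjusted p = 0.307), and with an offset 0.32 (0.401).

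Of 41 nuclear genes for plastid ribosomal proteins in a list drawn up for this comparison, 6 were on single-gene probes, namely the 5 members and L34 (AT1G29070), a protein of the large subunit. L34 had deposited values of 0.0596, 0.0616, 0, 0.0280, 0.0443 and 0.119 in toc90 readings 1 to 6, against 0.0636, 0.108, 0.0272, 0.0466, 0.0544 and 0.0642 in WT readings 1 to 6. The groups overlapped, and the lowest and the highest of the 12 values were both toc90 readings. Its deposited mean was 0.0520 ± 0.0399 in toc90 and 0.0607 ± 0.0270 in WT (SD, n = 6 each, exact permutation adjusted p = 0.776).

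The log2 difference of L34 after normalization had the other sign, at 1.12 (SE 0.43, limma adjusted p = 0.0842), with toc90 reading 3 left out as a zero. It was called without toc90 reading 4 (1.43, limma adjusted p = 0.0261) or without WT reading 2 (1.34, limma adjusted p = 0.0468), but not with any 1 other reading left out. Such calls follow from the choice of the reading and are no separate support. The L34 difference was 0.77 with median scaling (limma adjusted p = 0.257) and -0.002 as deposited (0.997). With neighbouring numbers averaged it was 0.91 (limma adjusted p = 0.380). None of the 12 plastid translation factors, 19 plastid transcription genes and 5 ribosome assembly genes of the fixed lists was on a single-gene probe, although 3 translation factors and 1 assembly gene were on probes shared by several genes, from which none is named. Of 67 genes found by the words "ribosomal protein" in the reference table, 0 were on single-gene probes. That search can miss ribosomal protein genes under other names, and the cytosolic and mitochondrial ribosomes were not analysed here.

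The members did not follow one profile over the readings. As a measure of likeness, each probe's normalized log2 values were centred on their mean, and the root mean square difference between 2 probes was taken over the readings in which both were above 0. The mean was over both groups, so the difference between toc90 and WT is part of this measure. Probes picked as closest to a member therefore tend to share its difference by the choice. It was 0.47 in log2 between L5 and L17 over 12 readings, against 1.06 between L29 and L17 and 1.23 between L29 and L5. The profiles closest to L29 among 275 single-gene probes were AT4G13680 (0.50) and AT4G21170 (0.53), where the median probe was at 1.13. AT4G13680 averaged 0.0946 ± 0.0289 in toc90 and 0.372 ± 0.169 in WT (SD, n = 6 each), a log2 difference of -1.34 (limma adjusted p = 0.0168). AT4G21170 averaged 0.537 ± 0.206 in toc90 and 0.960 ± 0.115 in WT (SD, n = 6 each) and did not pass (-0.93, limma adjusted p = 0.0655).

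The profiles closest to L5 were PSB27 (0.23), an assembly factor of photosystem II, and AT5G66780 (0.24), against a median of 0.64. Both had log2 differences near 0, at 0.03 and -0.06 (limma adjusted p = 0.941 and 0.835). The profiles closest to L17 were PSBW (0.26), a small subunit of photosystem II, and chr31 (0.29), against a median of 0.66, with log2 differences of -0.35 and -0.17 (limma adjusted p = 0.171 and 0.702). The profiles closest to S10 were AT4G30740 (1.17) and AT3G52070 (1.27) over 10 readings, against a median of 2.12 over 341 probes. These readings include toc90 reading 1, where S10 was near the floor at 0.000268. These likenesses are descriptions over readings that share columns and, for neighbouring numbers, may share their source. The differences of the closest profiles are no separate support for those of the members.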

How the data were processed

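The deposited table held intensity values, 1 column per sample, for 3439 probes and 12 readings of total RNA, 6 of toc90 and 6 of WT, grouped by the sample titles. What the authors did to make this deposited intensity (array design, scanner, background step, scaling) is not given in the sources used here. Values ran from 0 to 100, and 5 columns reached 100. Genes were named from the platform annotation, updated through a RefSeq gene table of the assembly TAIR10.1, in which all 5 members matched. Of the probes, 692 had 1 gene, 870 several and 1877 were not listed.

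Values were taken to log2 with zeros as missing, quantile normalized and fitted in limma 3.58.1 (lmFit, then eBayes; R 4.3.3) on all probes with at least 3 values per group. Quantile normalization takes missing values as spread evenly over levels, while toc90 had more zeros. The median log2 difference of all tested probes was -0.21, against 0.06 with an offset. Fits were tested on simulated data with independent noise in each reading. That test does not cover the correlation of neighbouring readings. Exact permutation tests on deposited means used all assignments of the 12 readings and were adjusted over the 3333 probes with a value above 0. Ratios of member pairs were adjusted over 6 pairs. Named genes were the members, single-gene probes of the fixed plastid ribosome, translation, transcription, assembly and ribosomal protein lists, and the 2 closest profiles of each member above 0 in enough readings. Members and lists were chosen with earlier results of these data known. Alternatives covered normalization, zeros, dim probes, blocks, averages and left-out readings. Figures used matplotlib 3.10.9 in Python 3.11.15.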

Additional observations from a re-analysis of the deposited data

Results flagged for a closer look

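S6 (AT1G64510) had 1 reading apart from the rest in each group, at 0.0330 in toc90 reading 5 and 0.00444 in WT reading 6. The other 5 readings of each group were listed at 0, so each marks the 1 reading above the floor. These were 2 of the 12 sets of 6 readings looked at. The rate of about 1 set in 20 that chance marks does not apply here, since with 5 readings at 0 any sixth reading above 0 is marked.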

How the results depend on the processing

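The L29 difference stayed below 0 in every alternative run, but its call did not hold in all of them. Zeros at the lowest positive value gave -1.02 (limma adjusted p = 0.0712), the number as a replicate block -1.60 (0.0720), neighbouring numbers averaged -1.60 (0.199) and neighbouring numbers as a random block -1.60 (0.0533). Averaging with zeros included gave -1.32 (0.277), and leaving out numbers 1 and 2 gave -2.07 (0.0518) and 5 and 6 gave -2.02 (0.0557), these 3 chosen after seeing the data. In each of these settings 0 members were called, against 1. Calls over all probes numbered 643, against 353 with cyclic loess, 981 as deposited, 258 with floored zeros (set to the lowest positive value), 426 with the replicate block, 277 with the random block, 107 averaged, 68 averaged with zeros included, and 389, 425 and 333 without numbers 1 and 2, 3 and 4, or 5 and 6. Of all calls, 186 were higher and 457 lower, against 431 and 339 with median scaling, 180 and 173 with cyclic loess, 85 and 896 as deposited, 142 and 116 with floored zeros, 284 and 336 with an offset. L29 stood at -0.79 with an offset and -2.32 as deposited, and was called in both (limma adjusted p = 0.0241 and 0.00140). Quantile normalization within each place of blocks of 96 probe IDs in runs of 3, also chosen later, gave -1.41 (0.0372). Without 1 reading it ran from -1.77 to -1.26, with 0 or 1 members called. With neighbouring numbers averaged, L29 to L5 (-2.10) and L29 to L17 (-1.73) had an exact permutation adjusted p of 0.3, and with the replicate block 0.188 each. Without 1 reading they ran from -2.32 to -1.63 and from -2.06 to -1.25. The deposited difference of L29 (-0.207) had an exact permutation adjusted p of 0.242 averaged and 0.0827 with the replicate block. That of L17 ran from -0.190 to -0.108 without 1 reading. Relative to the column median, that of L5 turned to 3.20 column medians. Same-numbered readings of toc90 and WT correlated at 0.0574 to 0.250 across probes, 12 of 12 best with their own number. This pattern is seen in the data, while the labels state no pairing by number. The replicate block was therefore not used for the main values, and its values are given beside them. Cyclic loess left out S10, which has zeros. Why the calls differed between settings was not tested. Dim signal limits S10 and S6.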
